A study of Mus musculus with 6 samples.

Results

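The genes described here encode the route by which a T cell takes up glucose, breaks it down to pyruvate, exports lactate or admits pyruvate to the mitochondrion, and diverts sugar into the pentose phosphate branch, together with the transcription factor Hif1a. They were taken from a list of 38 genes named by pathway, with no threshold on a measured value. Of these, 32 were measured by a probe set that names only that gene, among 22180 genes tested in all. Aldoa and Tkt were read only by probe sets that name several genes, and Gpi1, Pfkfb1, Eno1 and G6pdx were not matched to a probe set by symbol, so these 6 are not analysed here. Every one of the 32 had a mean level above 3.83 log2 units, the 95th percentile of 1394 olfactory and vomeronasal receptor genes, which served as a guide to background.

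RNA of C57BL/6 mouse CD8+ T cells was hybridised to 6 whole-transcript arrays, 3 from wild type and 3 from Dot1l knockout cells. The knockout line combined a floxed Dot1l allele with Cre recombinase driven by the Cd4 promoter, which is active in thymocytes before the CD4 and CD8 lineages part, so the deletion is not particular to CD8+ cells. Fresh cells were isolated from spleen and peripheral lymph nodes with a kit, and no treatment is given. The sources used here do not give the ages of the mice, whether the wild type mice carried Cre or the floxed allele, or whether each array stands for a separate animal. The p-values therefore measure the spread between these arrays alone, which may be technical.

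Glycolysis turns glucose into pyruvate through a chain of cytosolic enzymes, of which hexokinase, phosphofructokinase and pyruvate kinase catalyse the steps that are hard to reverse. Lactate dehydrogenase then interconverts pyruvate and lactate, while the pyruvate dehydrogenase complex commits pyruvate to the citric acid cycle and is switched off by the pyruvate dehydrogenase kinases. Resting naive CD8+ T cells are known to rely mainly on mitochondrial respiration, and activated effector cells on a high rate of glycolysis with release of lactate. Many enzyme genes of the pathway are known targets of the hypoxia-inducible factor and of Myc, both of which can bind motifs that contain the letters ACGTG.

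The promoters of the 4 genes that passed the test below are shown because these genes carry the result, as the 250 bases before the RefSeq start on GRCm38.p6, 5′ to 3′ on the gene's own strand. Capitals mark ACGTG on either strand, including where it lies within the palindrome CACGTG.

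Ldha, chr7:46845554-46845803, plus strand: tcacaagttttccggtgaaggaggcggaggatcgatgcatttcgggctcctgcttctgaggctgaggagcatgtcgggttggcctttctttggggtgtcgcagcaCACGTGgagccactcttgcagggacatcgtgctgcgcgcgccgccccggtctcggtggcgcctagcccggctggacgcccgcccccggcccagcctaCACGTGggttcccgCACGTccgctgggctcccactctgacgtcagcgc

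Hk2, chr6:82774455-82774704, minus strand: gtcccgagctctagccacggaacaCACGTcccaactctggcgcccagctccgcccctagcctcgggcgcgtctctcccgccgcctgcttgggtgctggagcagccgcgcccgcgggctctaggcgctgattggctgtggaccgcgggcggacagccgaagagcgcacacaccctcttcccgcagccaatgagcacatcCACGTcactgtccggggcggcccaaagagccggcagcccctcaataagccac

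Ldhb, chr6:142507958-142508207, minus strand: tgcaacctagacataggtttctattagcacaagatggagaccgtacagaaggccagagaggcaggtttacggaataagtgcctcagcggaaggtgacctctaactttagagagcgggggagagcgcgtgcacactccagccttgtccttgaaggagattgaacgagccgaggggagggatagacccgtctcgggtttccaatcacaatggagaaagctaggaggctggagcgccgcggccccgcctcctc

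Eno3, chr11:70656926-70657175, plus strand: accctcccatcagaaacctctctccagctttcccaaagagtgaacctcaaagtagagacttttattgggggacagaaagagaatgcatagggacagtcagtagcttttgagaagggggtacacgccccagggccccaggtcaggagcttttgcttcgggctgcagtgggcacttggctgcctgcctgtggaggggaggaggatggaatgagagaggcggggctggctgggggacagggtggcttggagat

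The Ldha window held ACGTG 5 times over both strands, of which 4 lay in its 2 copies of CACGTG, since each copy reads ACGTG on both strands. The Hk2 window held ACGTG 2 times and no CACGTG, and the windows of Ldhb and Eno3 held neither. A further RefSeq start of Ldha, with the window chr7:46846832-46847081, held neither motif. Of the 32 measured genes 31 had a promoter in the RefSeq table, with 44 windows in all. ACGTG was present in 19 of these windows (43.2%), against 16.6% of all 32851 windows of the same length, and CACGTG in 7 (15.9%), against 6.0%. The windows of these genes were also richer in G and C, at a median of 59.8% against 52.4% over all windows, and the part of base composition in the motif shares was not tested.

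Dot1l itself was not lower in knockout-labelled arrays. It read 7.46, 6.96 and 7.18 in wild type and 7.31, 7.26 and 7.33 in knockout-labelled arrays. The log2 difference of 0.10 (SE 0.13) did not pass (limma, Benjamini-Hochberg adjusted p = 0.765). The sources used here do not give the deleted part of the gene, so whether the probe set covers it is unknown. The labels could not be checked in this way, and directions refer to arrays as labelled. The defining markers Cd8a (11.1 ± 0.12 wild type, 10.9 ± 0.07 knockout-labelled, SD, n = 3 each), Cd8b1 and Cd3e were read in all arrays, and Cd4 lay at the background guide (3.79 and 3.86). Over all genes, 954 passed as higher (4.30%) and 266 as lower (1.20%) in knockout-labelled arrays, 5.50% together, a split that became 625 and 470 when the arrays were quantile-normalised again over all probe sets. Among the 11425 genes above the background guide 9.94% passed. A run of 5333 unnamed probe sets at the head of the table read 3.50 to 3.80 as array medians in wild type and 4.12 to 4.34 in knockout-labelled arrays, so this signal moves with every difference given here, and its part in them was not tested. With that median as a covariate 5 genes over the whole table passed by limma and 0 of the 32, in a fit whose covariate does not overlap between the groups.

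The enzyme genes Hk2, Ldha and Ldhb rose and Eno3 fell in knockout-labelled arrays, and the other 28 did not pass (limma, adjusted over all 22180 genes). These 4 are 12.5% of the 32, near the 9.94% of all genes above background. The groups did not overlap for 8 genes that were higher and 5 that were lower, where 13.7% and 9.78% of all genes, and 22.5% and 11.2% of those above background, behaved so. An unadjusted p under 0.05 was reached by 13 of the 32 (40.6%), against 18.0% of all genes and 27.3% of those above background. The median log2 difference of the 32 was 0.08, against -0.01 over all genes and 0.04 over genes above background, and it was -0.01 after the repeated quantile normalization, where the median of all genes was -0.06.

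**Figure D1:**
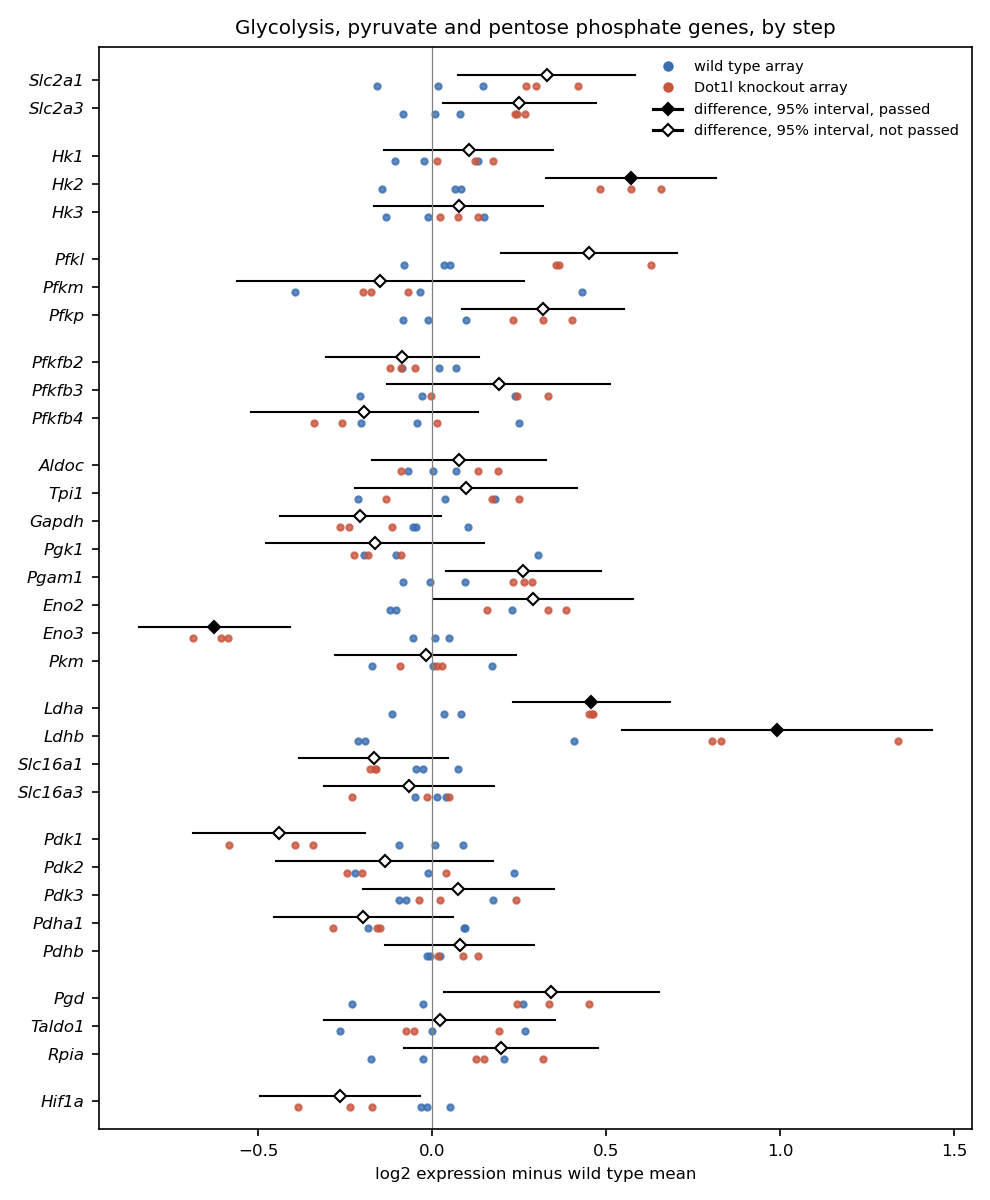
Each row is a gene, grouped by pathway step; circles give the log2 expression of the 3 wild type (blue) and 3 knockout-labelled (red) arrays minus the wild type mean, and diamonds the fitted difference with its 95% interval, filled where the adjusted p was under 0.05. The filled diamonds are Hk2 (0.57), Ldha (0.46), Ldhb (0.99) and Eno3 (-0.63), and the intervals of 19 of the others include 0.

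Neither glucose transporter passed, although the groups stood apart for both. Slc2a1, the transporter Glut1 that activated T cells place on their surface, read 8.42, 8.60 and 8.73 in wild type and 8.9997, 8.85 and 8.88 in knockout-labelled arrays. Its log2 difference was 0.33 (SE 0.11, limma adjusted p = 0.152). Slc2a3, the high-affinity transporter Glut3, read 7.06, 7.22 and 7.15 in wild type arrays. The knockout-labelled arrays read 7.41, 7.38 and 7.39, a difference of 0.25 (SE 0.10, adjusted p = 0.210). All 3 knockout-labelled arrays thus lay above all 3 wild type arrays for both transporters, by less than the whole-table adjustment asks for. A second, dimmer probe set of Slc2a1 read 4.35 in wild type and 4.48 in knockout-labelled arrays (0.13, not passed).

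At the hexokinase step, which traps glucose as glucose 6-phosphate, the inducible isoform rose. Hk2 read 4.998, 5.22 and 5.21 in wild type arrays and 5.72, 5.63 and 5.80 in knockout-labelled arrays. The groups did not overlap, and the lowest knockout-labelled array lay above the highest wild type array. The log2 difference was 0.57 (SE 0.11, 95% interval 0.33 to 0.82), a 1.49-fold rise (limma adjusted p = 0.0157). It did not pass without knockout replicate 1 (adjusted p = 0.0611) or 3 (0.0824), nor after quantile normalization, where the difference was 0.37 (0.133). Hk1, the constitutive isoform, read 7.42 ± 0.12 in wild type and 7.52 ± 0.08 in knockout-labelled arrays, a difference of 0.10 (95% interval -0.14 to 0.35, adjusted p = 0.682). Hk3, an isoform of myeloid cells, read 3.80 and 3.88, at the background guide, with a difference of 0.07.

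The 3 phosphofructokinase subunits, which form the tetramers that commit sugar to glycolysis, did not read alike. Pfkl, the liver-type subunit, read 5.89, 5.78 and 5.91 in wild type and 6.49, 6.22 and 6.22 in knockout-labelled arrays. The groups did not overlap, and the difference of 0.45 (SE 0.11) lay just outside the threshold (limma adjusted p = 0.0523). Pfkp, the platelet-type subunit, read 8.95, 8.88 and 9.06 against 9.36, 9.28 and 9.19, also without overlap. Its difference was 0.32 (SE 0.10, adjusted p = 0.134). With trend and robust variance fitting both passed (adjusted p = 0.0422 for Pfkl and 0.0360 for Pfkp). The fits that left out an array used neither trend nor robust fitting, so they do not test those passes. In them Pfkl (adjusted p = 0.0903 to 0.175) and Pfkp (0.156 to 0.337) did not pass, as in the same fit with all arrays. Quantile normalization brought the Pfkl difference down to 0.29 (0.214). Pfkm, the muscle-type subunit, spread widely in wild type arrays, at 5.27, 4.44 and 4.80, and read 4.66, 4.64 and 4.77 in knockout-labelled arrays, within that range (-0.15, SE 0.18).

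The bifunctional enzymes that make and remove fructose 2,6-bisphosphate, the activator of phosphofructokinase, gave no pass among 3 measured genes. Pfkfb2 differed by -0.09, Pfkfb3, the isoform with the strongest kinase activity, by 0.19, and Pfkfb4 by -0.20, with adjusted p from 0.549 to 0.711 and overlapping groups.

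Of 8 measured genes of lower glycolysis, from aldolase to pyruvate kinase, 1 fell and 7 did not pass. The fall was that of Eno3, the enolase isoform known from muscle. It read 6.30, 6.34 and 6.24 in wild type and 5.69, 5.61 and 5.71 in knockout-labelled arrays, with a wide gap between the groups. The log2 difference was -0.63 (SE 0.10, 95% interval -0.84 to -0.41), a 1.54-fold fall (limma adjusted p = 0.00536). Of the 32 genes only Eno3 passed whichever of the 6 arrays was left out (adjusted p = 0.0131 to 0.0332), and its difference was -0.79 after quantile normalization. Eno2, the neuronal enolase, read 3.88, 3.90 and 4.23 in wild type and 4.34, 4.39 and 4.16 in knockout-labelled arrays, which overlapped (0.29, SE 0.13, adjusted p = 0.269).

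The other enzymes of this stretch differed little. Pgam1, the phosphoglycerate mutase, read 6.49, 6.66 and 6.57 in wild type and 6.86, 6.80 and 6.84 in knockout-labelled arrays. Its groups did not overlap (0.26, SE 0.10, adjusted p = 0.196), but its other probe set gave 0.04 (5.29 in wild type, 5.32 in knockout-labelled arrays). Gapdh, the glyceraldehyde phosphate dehydrogenase often used as a reference gene, read 11.13, 11.29 and 11.14 in wild type and 11.07, 10.92 and 10.94 in knockout-labelled arrays, a difference of -0.21 (adjusted p = 0.337). The groups were just separate, and its 2 other probe sets gave -0.25 and -0.50, neither of which passed. Aldoc (0.08), Tpi1 (0.10), Pgk1 (-0.17) and Pkm (-0.02), which encode an aldolase, triose phosphate isomerase, phosphoglycerate kinase and the pyruvate kinase of T cells, overlapped between the groups, with adjusted p from 0.602 to 0.961. For Pkm the 95% interval of the difference ran from -0.28 to 0.24. Several of these genes have many processed pseudogenes, so a probe set may also read related copies.

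Both lactate dehydrogenase genes rose, and the larger rise was that of the B subunit. Ldhb, whose subunit is known to favour the conversion of lactate to pyruvate, read 4.22, 4.84 and 4.24 in wild type arrays. The knockout-labelled arrays read 5.77, 5.26 and 5.23, so the groups did not overlap, although wild type replicate 2 and knockout replicate 1 stood above the others of their group. The difference of 0.99 (SE 0.20, 95% interval 0.54 to 1.44) is a 1.99-fold rise (limma adjusted p = 0.0194). That SE was the largest of the measured members, and the wild type values of Ldhb lay near the background guide of 3.83. The call was lost on leaving out wild type replicate 1 (0.0617), wild type replicate 3 (0.0784) or knockout replicate 1 (0.0686), and after quantile normalization (0.0805).

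Ldha, whose subunit is known to favour lactate formation, read 6.10, 6.30 and 6.25 in wild type arrays and 6.66, 6.67 and 6.68 in knockout-labelled arrays. The knockout-labelled values were nearly equal and all lay above the wild type values. The difference was 0.46 (SE 0.10, 95% interval 0.23 to 0.68), a 1.37-fold rise (limma adjusted p = 0.0295). Leaving out any array but wild type replicate 2 ended the call (adjusted p = 0.0751 to 0.116), as did median centring (0.0576) and quantile normalization (0.124).

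The lactate carriers did not pass. Slc16a1, the transporter Mct1, read 8.57, 8.59 and 8.69 in wild type and 8.46, 8.46 and 8.44 in knockout-labelled arrays, just below without overlap (-0.17, SE 0.10, adjusted p = 0.412). Slc16a3, the exporter Mct4 of strongly glycolytic cells, differed by -0.07 (95% interval -0.31 to 0.18).

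**Figure D2:**
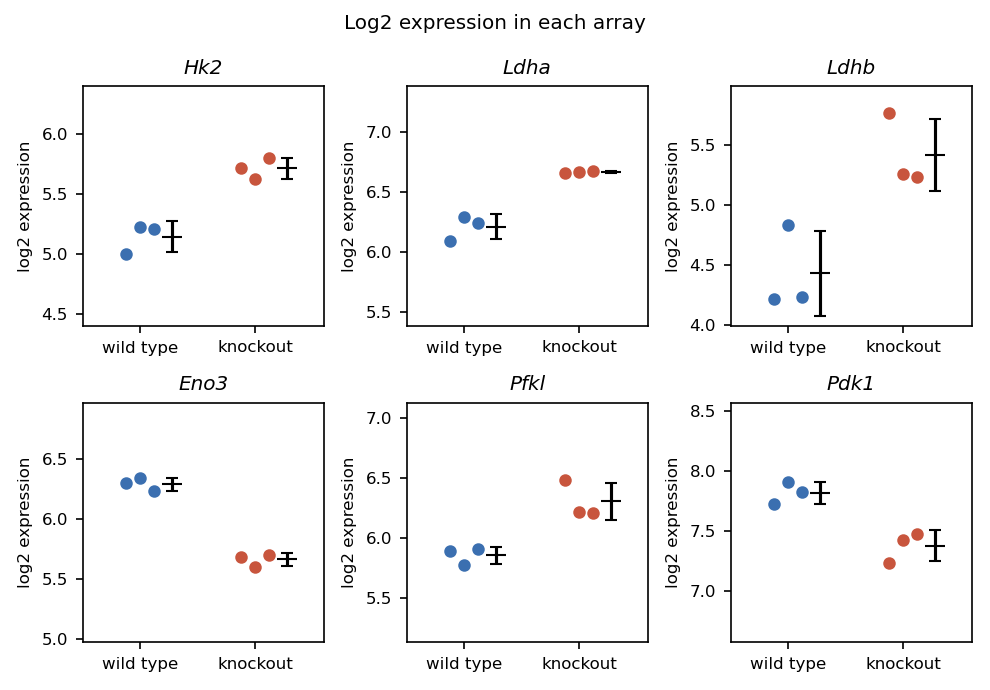
Log2 expression (vertical axes, each spanning the same width of 2 log2 units) of Hk2, Ldha, Ldhb, Eno3, Pfkl and Pdk1 in the 3 wild type (blue) and 3 knockout-labelled (red) arrays, with the mean and SD beside the points. In all 6 genes the groups are separate, and Pfkl and Pdk1 lie just outside the threshold with adjusted p of 0.0523 and 0.0506.

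At the entry to the mitochondrion no gene of the 5 measured passed, and the kinase Pdk1 came nearest. Pdk1, which phosphorylates and inactivates pyruvate dehydrogenase and is a known target of the hypoxia-inducible factor, read 7.72, 7.90 and 7.83 in wild type and 7.23, 7.42 and 7.47 in knockout-labelled arrays. The groups did not overlap, and the difference was -0.44 (SE 0.11, limma adjusted p = 0.0506). It passed after quantile normalization (-0.49, adjusted p = 0.0401) and after median centring (0.0342). It also passed with either filter on dim genes (0.0417 and 0.0248) and with trend and robust fitting (0.0190). As the mean of its probe sets it did not pass (-0.29, 0.214). Nor did it in the 6 fits without 1 array (0.0620 to 0.177), which used the values as deposited with no filter, trend or robust fitting. The settings that gave a pass were not rerun without an array. A second Pdk1 probe set lay below background. Pdk2 (-0.14) and Pdk3 (0.07), the other kinases among the 32 genes, and the subunit genes Pdha1 (-0.20) and Pdhb (0.08) of the enzyme itself overlapped between the groups, with adjusted p from 0.420 to 0.816. Pdk4, a kinase gene of a related list below, lay below the background guide (3.65 in wild type, 3.45 in knockout-labelled arrays). It did not pass (-0.19, limma adjusted p = 0.554).

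In the pentose phosphate branch, which supplies NADPH and ribose, 0 of 3 measured genes passed (limma), and 1 had an unadjusted p under 0.05. That gene was Pgd, which encodes the NADPH-forming phosphogluconate dehydrogenase. It read 7.57, 8.07 and 7.78 in wild type and 8.26, 8.05 and 8.14 in knockout-labelled arrays, which overlapped through wild type replicate 2 (0.34, SE 0.14, adjusted p = 0.223). Taldo1, the transaldolase, differed by 0.02 and Rpia, the ribose phosphate isomerase, by 0.20.

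Hif1a, the oxygen-regulated subunit that drives many of these enzyme genes, did not pass. It read 7.95, 7.97 and 8.04 in wild type and 7.60, 7.82 and 7.75 in knockout-labelled arrays, without overlap. The difference was -0.27 (SE 0.10, 95% interval -0.50 to -0.03, adjusted p = 0.204). Its activity is known to be set largely by protein stability, which these arrays do not measure. A dimmer Hif1a probe set gave -0.09 (3.78 in wild type, 3.69 in knockout-labelled arrays).

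Isoform pairs were then compared within each array, which removes a log2 shift common to all genes of the array. It does not remove a shift that depends on the level of a gene. Of 11 planned pairs 9 had both genes measured. In 4 of the 9 the groups were separate, and with 3 against 3 arrays the two-sided exact permutation test cannot go below p = 0.10, the value reached by these 4 (0.225 adjusted over the 9 pairs). Hk2 minus Hk1 moved from -2.27 ± 0.08 to -1.81 ± 0.14, a change of 0.47 toward the inducible isoform. Ldha minus Ldhb moved from 1.78 ± 0.29 to 1.25 ± 0.31 (-0.53), since Ldhb rose further. After quantile normalization the differences between the groups were 0.37 for Hk2 and 0.045 for Hk1, and 0.33 for Ldha and 0.81 for Ldhb. Pfkm minus Pfkl changed by -0.60 and Pfkp minus Pfkl by -0.13, the latter 0.01 after quantile normalization. The pairs of Slc2a3 with Slc2a1, Pfkfb3 with Pfkfb4, Slc16a3 with Slc16a1, Pdk1 with Pdk2 and Pdk3 with Pdk2 overlapped between the groups (exact p = 0.2 to 0.4). The level of one probe set was not set against another's here, only how their difference moved.

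Related lists were read in the same fit. Of 28 measured further genes of glucose metabolism 1 rose, 2 fell and 25 did not pass, with a median log2 difference of -0.03. These 3 are 10.7% of the list, beside 5.50% of all genes and 9.94% of those above background, and 22 of the 28 lay above the background guide. Txnip, a brake on glucose uptake whose transcription follows glucose 6-phosphate, fell from 11.3 ± 0.03 to 10.5 ± 0.07. Its values were 11.29, 11.35 and 11.30 in wild type and 10.58, 10.44 and 10.50 in knockout-labelled arrays, with no overlap. The fall was 0.81 on the log2 scale (difference -0.81, SE 0.10, limma adjusted p = 0.00141), 1.75-fold, and it passed whichever array was left out. Arrdc4, its relative under the same control, fell by 0.47 (5.58 to 5.11, adjusted p = 0.0273), but leaving out any array except wild type replicate 2 ended the call (0.0685 to 0.118). Gpd2, the mitochondrial glycerol phosphate dehydrogenase that carries glycolytic electrons inward, rose by 0.41 (6.09 to 6.50, adjusted p = 0.0383), a call that ended on leaving out any array except wild type replicate 2 (0.0914 to 0.155), after quantile normalization (0.27, adjusted p = 0.172) and after median centring (0.0786).

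Of 9 genes for the entry of pyruvate into mitochondria 2 rose and 7 did not pass (median -0.04), which is 22.2% of a short list, beside 5.50% of all genes and 9.94% of those above background. Pdp1, the phosphatase that reactivates pyruvate dehydrogenase and so opposes Pdk1, read 5.98, 6.19 and 6.10 in wild type and 6.65, 6.87 and 6.63 in knockout-labelled arrays. Its difference of 0.63 (SE 0.11, limma adjusted p = 0.0116) did not pass without knockout replicate 2 (0.0574). Pdpr, the regulatory partner of that phosphatase, rose by 0.41 (6.69 to 7.10, adjusted p = 0.0438), a call that likewise ended without any one array other than wild type replicate 2 (0.10 to 0.150), after quantile normalization (0.127) and after median centring (0.0956). Pdp2 differed by 0.31 (adjusted p = 0.138).

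Of 16 citric acid cycle genes none passed by limma, 1 (Dlst, -0.26, adjusted p = 0.171) had an unadjusted p under 0.05, and 0 passed with trend and robust fitting. The next smallest p belonged to Sdhd (0.22) and Idh3b (-0.23), and the median was 0.03. Of 17 upstream regulators, among them Myc (-0.01, 95% interval -0.24 to 0.23), likewise none passed by limma, and 2 passed with trend and robust fitting. An unadjusted p under 0.05 was reached by 4 of these 17, beside 18.0% of all genes and 27.3% of those above background. The smallest p belonged to the kinase gene Pik3cd (-0.37, adjusted p = 0.0706), the activation factor gene Irf4 (0.35, 0.106) and Rptor (0.27, 0.186), the scaffold of the mTOR complex.

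Among 18 genes of the hypoxia-inducible factor system outside glycolysis 5 rose, 0 fell and 13 did not pass, with a median of 0.16 (0.06 after quantile normalization). The 5 are 27.8% of the list, beside 4.30% of all genes passing as higher and 9.94% of those above background passing in either direction. Groups did not overlap for 8 of the 18, all of them higher, beside 13.7% of all genes and 22.5% of those above background that were higher without overlap. An unadjusted p under 0.05 was reached by 7, also all higher, beside 18.0% and 27.3% in either direction. After quantile normalization 3 of the 18 passed. Egln3, an oxygen-sensing prolyl hydroxylase that marks the factor for destruction and is itself induced by it, read 5.52, 5.21 and 5.23 in wild type and 6.96, 6.92 and 7.09 in knockout-labelled arrays. That difference of 1.67 (SE 0.12, limma adjusted p = 7.42e-05) is a 3.18-fold rise. Vegfa, the vascular growth factor, rose by 1.13 (4.70 ± 0.29 to 5.83 ± 0.08, adjusted p = 0.00213), and Epas1, which encodes the sister factor HIF-2 alpha, rose by 1.11 (4.20 ± 0.46 to 5.31 ± 0.06, adjusted p = 0.0116), a call lost without knockout replicate 3 (0.0568). In wild type replicate 2 Epas1 read 3.80, below the background guide.

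Ddit4, an inhibitor of the mTOR complex, rose by 0.47 (adjusted p = 0.0323), and Hif1an, the asparagine hydroxylase that blocks the factor, by 0.53 (0.0426). Quantile normalization brought these differences down to 0.30 and 0.34 and ended both calls (0.214 and 0.168), as did median centring (0.0711 and 0.0566). The call of Ddit4 also ended on leaving out any array except wild type replicate 2 (0.0850 to 0.128). That of Hif1an ended on leaving out any array except knockout replicate 1 (0.0638 to 0.167). The 13 genes that did not pass ran from Arnt (-0.12), the partner subunit of the factor, to Higd1a (0.54, adjusted p = 0.0891), a mitochondrial protein gene induced in hypoxia. Vhl (0.35), whose product carries the hydroxylated factor to degradation, and Mxi1 (0.21) were also higher without overlap, and the known targets P4ha1 (-0.04), Kdm3a (-0.05), Bnip3 (-0.06), Ero1a (-0.08), Ndrg1 (0.00), P4ha2 (0.05) and Car9 (0.21) overlapped between the groups, as did Egln1 (0.10) and Egln2 (0.10).

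**Figure D3:**
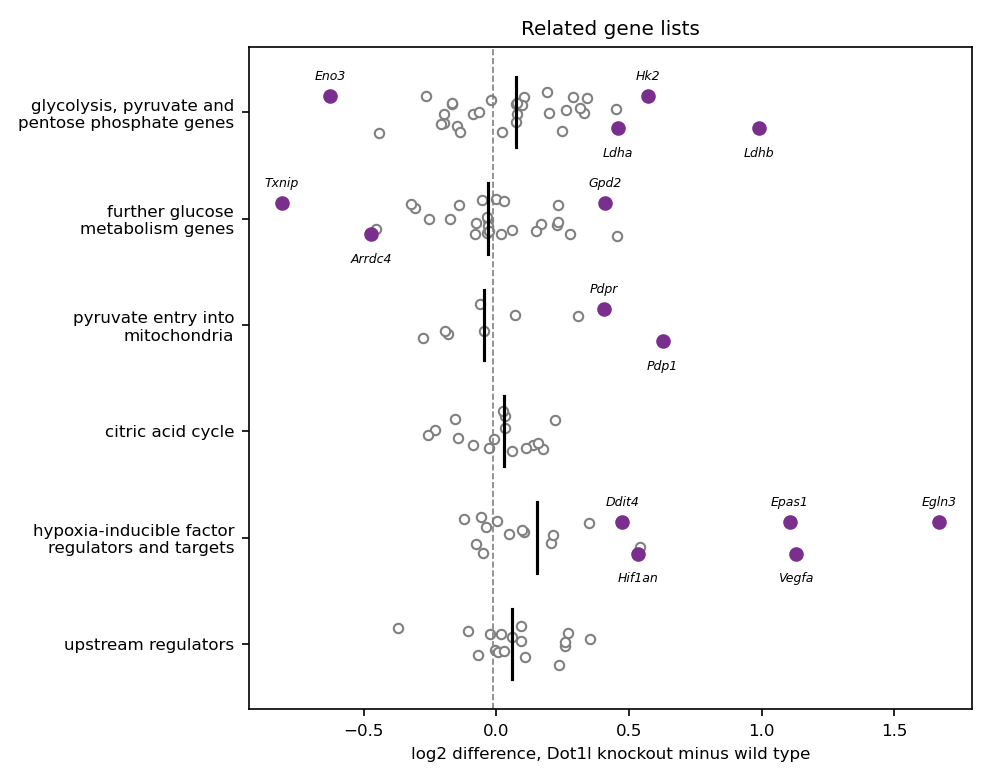
Each circle is a gene, placed by its log2 difference between knockout-labelled and wild type arrays (horizontal axis), in 6 lists (rows); filled named circles had an adjusted p under 0.05, black bars are list medians and the dashed line is the median of all genes (-0.01). Passing genes lie on both sides in the glucose lists (Eno3, Txnip and Arrdc4 to the left), the citric acid cycle and upstream regulators have none, and Egln3 lies farthest to the right at 1.67.

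Marker lists of dividing cells and of other cell types were read in the same way, and passing counts stand beside the 5.50% of all genes and 9.94% of genes above background that passed. Of 11 proliferation markers 4 rose (36.4%), Ccna2 (0.88), Rrm2 (0.72), Top2a (0.56) and Mcm6 (0.42), and 0 fell. Their summed linear level was 1179 to 1303 in wild type and 1536 to 1617 in knockout-labelled arrays, and Birc5 lay below the background guide. Mcm3 (0.01), the most abundant, Cdk1 (-0.05) and Mcm5 (0.27) overlapped between the groups. The other 8 were higher without overlap, beside 13.7% of all genes and 22.5% of those above background. After quantile normalization 3 of the 11 passed.

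Of 11 B cell markers 3 rose, Cd22 (1.29), Ms4a1 (1.13) and Cd79a (0.86), and Ighm, the immunoglobulin heavy chain gene, fell (-0.60), 36.4% in all. Ighm was read by the brightest of its 7 probe sets, and the others are not described here. The sum of the list was lower in knockout-labelled arrays (1594 to 1750 against 2139 to 2452), but Ighm made up most of it, and without Ighm the sum was higher (304 to 360 against 216 to 256). Pax5, Ebf1, Cr2 and Fcrla lay below the guide in both groups, and Ms4a1 did so in wild type arrays (3.24, against 4.37 in knockout-labelled arrays).

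Of 8 dendritic cell markers 2 rose, H2-Aa (1.21) and Itgax (1.14), with Flt3, Zbtb46, Xcr1 and Siglech below the guide. H2-Eb1 (-0.05, overlapping) and Cd209a (-0.37, lower without overlap) did not pass. Their sums overlapped (368 to 458 in wild type and 391 to 450 in knockout-labelled arrays), and without Cd209a, the most abundant, they were 126 to 178 and 187 to 225. Of 12 monocyte, macrophage and neutrophil markers Itgam rose (0.60) and Mpo fell (-0.71), 16.7%, with overlapping sums (188 to 211 and 188 to 192) and with Cd14, Adgre1, S100a8, S100a9, Ly6g and Elane below the guide. Csf1r (-0.40) and Adgre1 (-0.60) were lower and Fcgr3 (0.29) higher, each with an unadjusted p under 0.05, and none of these passed.

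Of 5 platelet markers only Itgb3, an integrin, rose (1.58), and it alone set the sums apart (105 to 123 in wild type and 205 to 229 in knockout-labelled arrays, but 54.9 to 64.7 and 50.9 to 65.1 without it), while Pf4 and Ppbp lay below the guide. Of 6 CD4 T cell markers Il2ra rose (0.69) and Cd40lg fell (-0.88), with sums of 325 to 413 and 279 to 299 that overlapped without Ctla4 (106 to 118 and 106 to 112). Of 7 CD8 T cell markers 0 rose and 1, Cd5, fell by 1.01 on the log2 scale (sums 13121 to 14049 and 12531 to 12882). None of 4 erythroid markers passed by limma or with trend and robust fitting, and 0 reached an unadjusted p under 0.05 (109 to 138 and 124 to 125), with Slc4a1, Klf1 and Epor below the guide. The part of any of these cells in the differences of the glycolytic genes was not tested, and in bulk RNA a change in the share of cells and a change in the RNA of each cell cannot be told apart.

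**Figure D4:**
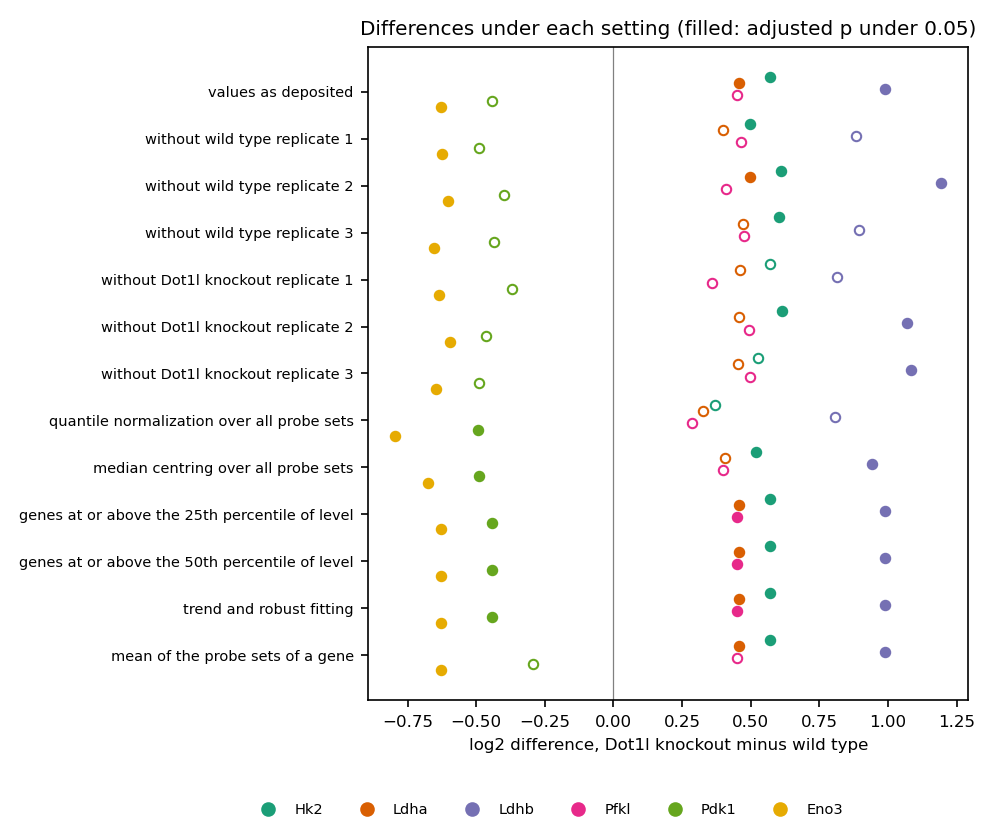
The log2 difference (horizontal axis) of Hk2, Ldha, Ldhb, Pfkl, Pdk1 and Eno3 under each processing setting (rows), filled where the adjusted p was under 0.05; points of a row are spread vertically for legibility, and the fits with a block or covariate are not drawn. No gene changes side, Eno3 is filled in every row drawn, and Hk2, Ldha and Ldhb are open after quantile normalization, where Pdk1 is filled.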

How the data were processed

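The deposited table holds log2 expression values per probe set, made by the authors with RMA, and the submitters' processing notes name R 3.1.1. RMA quantile-normalises arrays and summarises probes, and it compresses differences of dim genes. The sources used here do not give its settings, annotation or genome build. Of 41345 probe sets 23521 named 1 gene, 1814 several and 16010 none in the platform annotation. Where a gene had several probe sets, the brightest by its mean across the 6 arrays stood for it, giving 22180 genes. Older symbols in the related lists were updated through RefSeq synonyms.

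The fit over all genes used lmFit and eBayes of limma 3.58.1, run under R 4.3.3 (2 groups of 3, no covariate), with Benjamini-Hochberg adjustment over all genes and a threshold of 0.05, and no filter on level. Values are log2 means ± SD (n = 3), differences are knockout-labelled minus wild type, and folds are 2 raised to their size. The number of arrays, not a read depth, limits the precision. On simulated data with 22180 genes for this comparison, 75 of 100 changes of 1 log2 unit and 95 of 100 of 2 units passed. Smaller changes were not simulated, although the member differences ran from -0.63 to 0.99. The simulated spread was drawn independently for each gene and array, with no shift shared by the genes of an array. Isoform pairs used exact permutation tests in scipy 1.17.1.

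The genes were named by pathway, and they, the related lists and the tests were chosen with earlier results of these data known. Every measured member is named, with values in each array for those with an unadjusted p under 0.05. Of the related lists the passing genes and the 3 smallest p were to be named. The other genes named from them (Myc, Pdk4 and the hypoxia genes that did not pass) were chosen after their values were seen. So were the proliferation, dendritic and myeloid markers named without passing, and the marker sums without the most abundant gene. Alternatives were a replicate block, leaving out each array, quantile normalization, median centring, filters at the 25th and 50th percentile of level, trend with robust fitting, averaging the probe sets of each gene and, added after seeing the data, a covariate.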

Additional observations from a re-analysis of the deposited data

Results flagged for a closer look

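A signal outside the genes tested was higher in knockout-labelled arrays. The 5333 unnamed probe sets that stand together at the head of the table had a median log2 difference of 0.43, with 82.2% of them higher in knockout-labelled arrays, at a median level of 4.24 against 3.67 in wild type. The other 10677 unnamed probe sets had a median difference of -0.02. The sources used here do not say what the leading probe sets measure.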

How the results depend on the processing

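Directions of the 4 passing genes held under every alternative, but their calls depended on the setting, except for Eno3, which passed in all but the covariate fit. The 3 higher and 1 lower members became 0 and 2 after quantile normalization, 5 and 2 with trend and robust fitting, and 0 and 0 with the covariate. Median centring gave 2 higher and 2 lower members, and either level filter gave 4 higher and 2 lower. Leaving out 1 array gave 0 to 3 higher members. Over all genes the same fits gave 494 to 929 higher and 121 to 378 lower, against 954 and 266, quantile normalization gave 625 and 470, and the covariate 3 and 2. The median difference of the members was 0.42 with the covariate. Hif1an turned to -0.074 in that fit. The cause of these changes was not tested.

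Arrays with the same replicate number did not deviate together (correlations of -0.07, -0.16 and -0.07 over genes), so no pairing by number showed over all genes. The sources used here do not say whether the arrays were paired. With the replicate block 716 genes were higher and 196 lower, and 2 members were higher and 1 lower, Ldha being lost (adjusted p = 0.0841). The number of arrays limits precision, with standard errors of the members from 0.10 to 0.20.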
